A study of Mus musculus with 9 samples.

Results

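The genes examined here, 10 in all, belong to the endoplasmic reticulum (ER) chaperones and the XBP1 arm of the unfolded protein response, and were measured in mouse embryonic stem cells (ESCs) that differ in the number of Myc copies. These were Hspa5, Hsp90b1, Dnajb9, Dnajc3, Sdf2l1, Calr, Pdia4, Pdia6, Herpud1 and Xbp1, and they were found by matching the Ensembl identifiers of the deposited table to these symbols. All 10 of 10 were found among 35771 table rows, and all 10 passed the filter on low counts that left 13424 genes for testing. The ER folds proteins that enter the secretory pathway, with chaperones, lectins and disulfide isomerases. When unfolded protein builds up there, 3 membrane sensors (IRE1, ATF6 and PERK) signal to the nucleus. IRE1 splices Xbp1 mRNA so that it encodes an active transcription factor, ATF6 is cut in the Golgi to release another, and together these raise the transcription of ER chaperones, while PERK acts through translation and ATF4.

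RNA was sequenced from 9 libraries in 3 groups of 3, all from 1 ESC line, homozygous for iMOS T1-Myc and carrying RERT, a tamoxifen-dependent Cre recombinase, on a mixed background. In the first group were sorted cells with 2 extra copies of Myc and of the fluorescent protein EYFP, and in the second sorted cells with no extra copy. Both came from mosaic cultures given 20 µM 4-hydroxytamoxifen for 24 h and sorted by EYFP 24 h after the drug was removed. The third group was sorted from uninduced cultures of the same line. All cells grew on gelatin with LIF, and whether the line is 1 clone is not stated in the labels. The labels repeat the drug treatment for the uninduced samples, whose group was taken from their titles and the design text. The replicates are called biological replicas, but the labels do not say that they were separate cultures, so p-values measure only the spread between these samples.

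Library totals ran from 4165286 to 8872303 counts. Myc stood at 138, 147 and 141 CPM (counts scaled by TMM to a common library total) in the libraries with 2 extra copies, 31.8, 30.6 and 32.4 CPM with no extra copy, and 11.5, 14.1 and 14.2 CPM in uninduced libraries. It was 4.52-fold higher with 2 extra copies than with no extra copy (log2 2.18, SE 0.066, adjusted p = 6.81e-23). The sample titles name the second group as having no extra copy and do not give a copy number for uninduced cells. Myc was 2.36-fold higher in cells labelled as having no extra copy than in uninduced cells (log2 1.24, SE 0.096, adjusted p = 1.10e-11). Gene counts do not separate transcripts of the extra copies from those of the endogenous gene. Replicate 1 with 2 extra copies stood apart from the others of its group in read-count agreement, with a chi-square per degree of freedom of 2.55 and 2.89 where all replicate pairs ran from 1.36 to 2.89. Without it, 3, 8 and 3 members fell in the 3 comparisons made here, against 4, 8 and 3 with all libraries. Longer and shorter transcripts differed in level from library to library, and each count of member calls given here was the same with that length trend removed. The ESC markers Pou5f1, Sox2, Nanog, Esrrb, Zfp42, Klf4, Dppa5a and Tdgf1 passed the filter in 8 of 8 cases and summed to 3246 to 3436, 3523 to 3585, and 3396 to 3446 CPM in cells with 2 extra copies, cells with no extra copy and uninduced cells. The induced populations and the uninduced cells differ in drug, recombination, the company of Myc-high neighbours and their own Myc level at once, and these cannot be told apart.

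Promoters of the ER chaperones are known for the ER stress response element (ERSE), a CCAAT box bound by NF-Y and, 9 bases away, a CCACG half-site that ATF6 and XBP1 bind. The RefSeq promoter windows of GRCm38.p6, 250 bases before to 50 after each annotated start, were searched on both strands for ERSE (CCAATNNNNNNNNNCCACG), ERSE-II (ATTGGNCCACG), the unfolded protein response element TGACGTGG and the E-box CACGTG that Myc and its partner Max can bind. ERSE was in 5 of the 10 members and in 0.119% of 32851 promoters, and ERSE-II was in Herpud1 and in 0.0365% of promoters. The E-box was in the windows of Dnajb9 and Calr and in 7.15% of promoters, and TGACGTGG in no member window and in 0.676% of promoters. A match is a description of letters, not of a bound site. The ERSE and ERSE-II matches are printed because 6 of the members hold at least 1 of them. The members were chosen as genes of the ATF6 and XBP1 arms, and those factors bind the CCACG half-site. The share of members with a match is therefore not independent of that choice. Each is read 5′ to 3′ along the strand that holds the motif, with the half-sites in capitals and 10 flanking bases on each side.
Hspa5 ERSE, chr2:34772025-34772043, same strand as the gene: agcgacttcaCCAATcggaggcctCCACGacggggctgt
Hsp90b1 distal ERSE, chr10:86705638-86705656, same strand as the gene: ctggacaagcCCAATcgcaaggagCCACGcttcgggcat
Hsp90b1 proximal ERSE, chr10:86705533-86705551, opposite strand: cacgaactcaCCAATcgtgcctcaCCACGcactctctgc
Dnajc3 ERSE, chr14:118937827-118937845, same strand as the gene: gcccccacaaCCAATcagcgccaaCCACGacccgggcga
Calr ERSE, chr8:84847075-84847093, opposite strand: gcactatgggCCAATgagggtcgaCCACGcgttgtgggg
Pdia6 ERSE, chr12:17266491-17266509, same strand as the gene: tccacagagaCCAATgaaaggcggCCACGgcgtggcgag
Herpud1 ERSE-II, chr8:94386377-94386387, same strand as the gene: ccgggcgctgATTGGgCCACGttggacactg

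**Figure D1:**
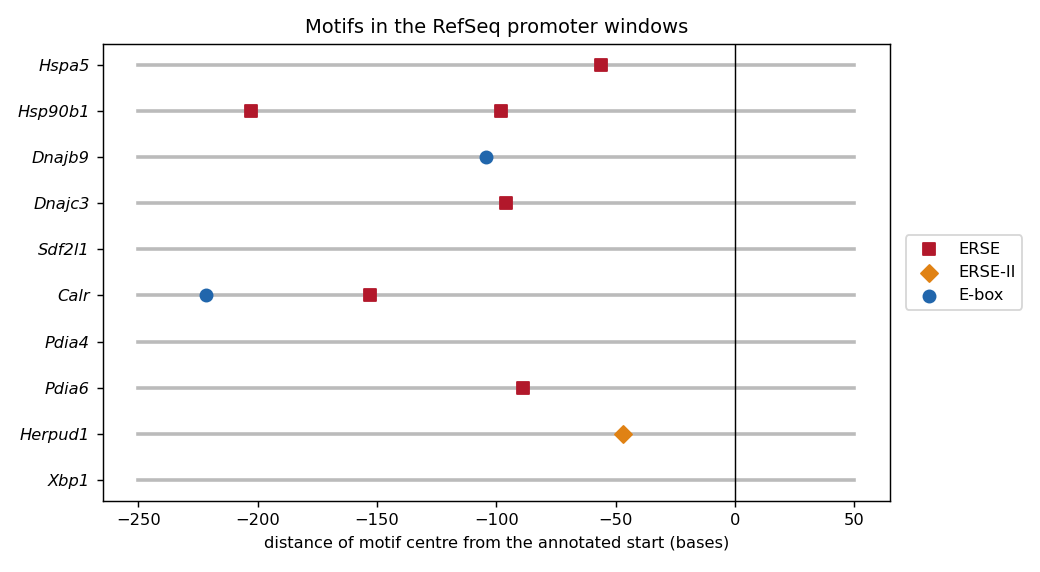
Position of each motif match in the RefSeq promoter window of each member; the horizontal axis is the distance of the motif centre from the annotated start in bases (vertical line at 0), squares are ERSE, the diamond ERSE-II and circles E-boxes. Hsp90b1 has 2 ERSE matches, Hspa5, Dnajc3, Calr and Pdia6 have 1 each, and the windows of Sdf2l1, Pdia4 and Xbp1 hold no match to the motifs searched.

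Most of the members were lower with 2 extra copies than in uninduced cells, and Hsp90b1, Pdia4 and Herpud1 were lower in both induced populations. Over the 3 groups, 8 of the 10 differed at an adjusted p below 0.05 in edgeR's quasi-likelihood F-test, where 31.0% of the 13424 genes tested did, and the exceptions were Dnajb9 (adjusted p = 0.627) and Sdf2l1 (adjusted p = 0.162). The 10 genes together had 2850, 2813 and 2904 CPM in the libraries with 2 extra copies, 3129, 2977 and 3037 CPM with no extra copy, and 3262, 3236 and 3316 CPM in uninduced libraries. These summed levels did not overlap between any pair of groups. They weigh the abundant members most, with Hsp90b1 (903 CPM, mean of 9 libraries), Calr (765) and Hspa5 (626) the largest. Between cells with no extra copy and uninduced cells, 7 of the 10 members were not called and 3 were, where 13.5% of all genes tested were called. The shifts of single genes were small, at most 1.33-fold, and in bulk RNA fewer cells of a type and less RNA per cell cannot be told apart.

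**Figure D2:**
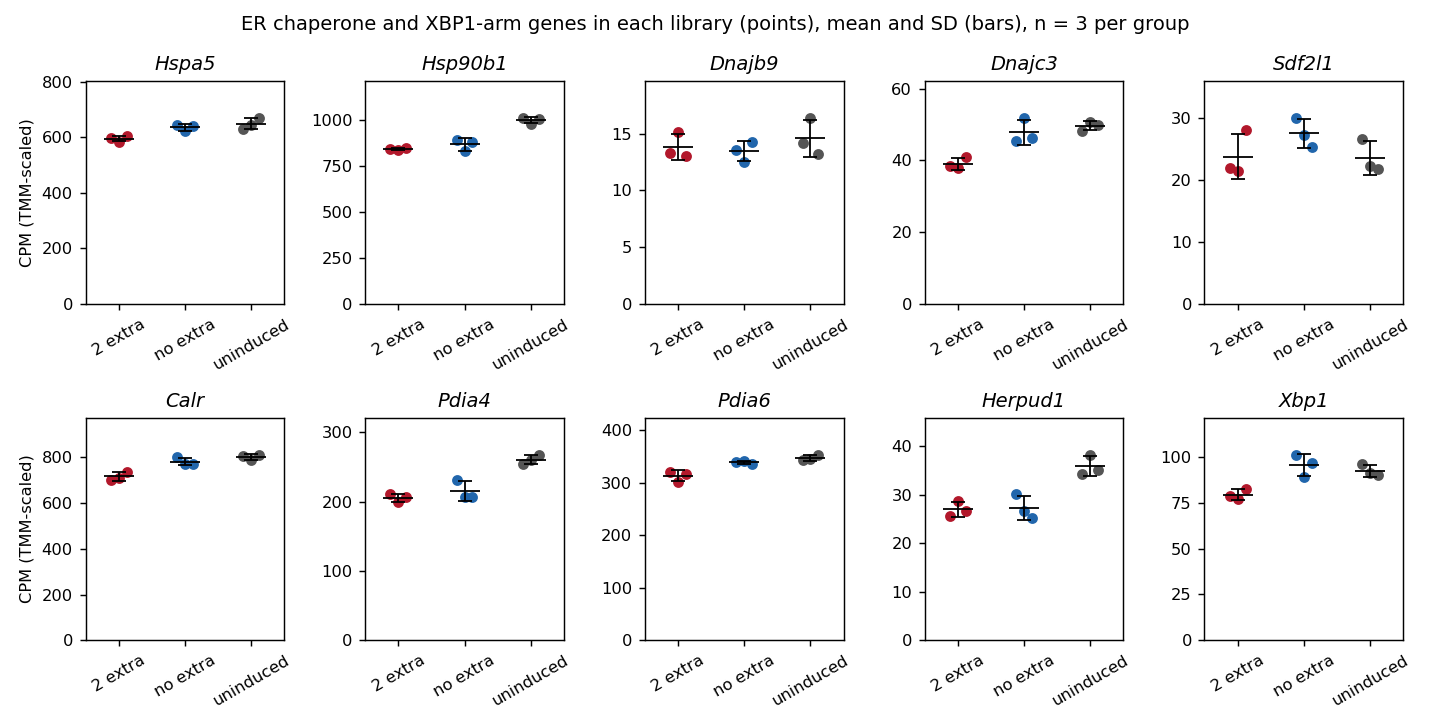
Level of each member in each library in TMM-scaled CPM (vertical axes from 0; each gene has its own scale), by group (2 extra copies, no extra copy, uninduced); points are libraries, bars the mean and SD of 3. Dnajc3, Calr and Xbp1 are lower with 2 extra copies than in both other groups, while Hsp90b1, Pdia4 and Herpud1 are higher in uninduced cells than in both induced populations.

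The ER members of the Hsp70 and Hsp90 families were both lower with 2 extra copies than in uninduced cells. Hspa5 (ENSMUSG00000026864; GRCm38, as for all gene positions given, chromosome 2, 34771970 to 34777547, forward strand) encodes BiP, the ER Hsp70, which binds unfolded chains and holds the stress sensors inactive. It stood at 598, 583 and 603 CPM with 2 extra copies, 645, 621 and 638 CPM with no extra copy, and 629.8, 645 and 668 CPM in uninduced cells. Every library with 2 extra copies lay below all of the others, and the other groups overlapped. Hspa5 fell 1.09-fold with 2 extra copies against uninduced cells (log2 -0.12, SE 0.035, adjusted p = 0.00825). That call was lost without uninduced replicate 3 (adjusted p = 0.0631) and without replicate 2 with 2 extra copies (adjusted p = 0.0528). Against cells with no extra copy, its log2 change was -0.09 (SE 0.035, 95% interval -0.16 to -0.02) and did not pass (adjusted p = 0.0666), although scaling by library size alone gave an adjusted p of 0.00618. Between cells with no extra copy and uninduced cells the log2 change was -0.03 (95% interval -0.10 to 0.04, adjusted p = 0.638).

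Hsp90b1 (ENSMUSG00000020048; chromosome 10, 86690209 to 86705509, reverse strand) encodes the ER Hsp90, which folds integrins and Toll-like receptors among its clients. Its levels were 842, 837 and 849 CPM with 2 extra copies, 894, 829 and 878 CPM with no extra copy, and 1010.0, 980.4 and 1008 CPM in uninduced cells. The induced populations overlapped, and both lay wholly below the uninduced libraries. Relative to uninduced cells it fell 1.19-fold with 2 extra copies (log2 -0.25, SE 0.034, adjusted p = 1.27e-06) and 1.15-fold with no extra copy (log2 -0.21, SE 0.034, adjusted p = 3.66e-05). The difference between the induced populations was log2 -0.04 (95% interval -0.11 to 0.03, adjusted p = 0.478). Exons of a pseudogene transcript on the opposite strand, 1810014B01Rik, cover 10.3% of its exonic bases, and no source used here says whether counting used strand.

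The cochaperones of BiP did not share 1 pattern. Dnajc3 (ENSMUSG00000022136; chromosome 14, 118937976 to 118981697, forward strand) encodes a J-domain protein that delivers unfolded chains to BiP. It had 38.4, 37.8 and 40.9 CPM with 2 extra copies, 45.6, 51.8 and 46.2 CPM with no extra copy, and 48.2, 50.7 and 50.03 CPM in uninduced cells. The libraries with 2 extra copies lay below all others, and the other groups overlapped. Dnajc3 fell 1.24-fold with 2 extra copies against no extra copy (log2 -0.31, SE 0.075, adjusted p = 0.00422) and 1.27-fold against uninduced cells (log2 -0.34, SE 0.073, adjusted p = 0.000614). The call against no extra copy was lost in DESeq2 (adjusted p = 0.0632) and without replicate 2 with no extra copy (adjusted p = 0.0925). Between cells with no extra copy and uninduced cells it differed by log2 -0.04 (adjusted p = 0.793).

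Dnajb9 (ENSMUSG00000014905; chromosome 12, 44205559 to 44210326, reverse strand) encodes a J-domain protein that brings BiP to IRE1, and it is a known target of XBP1. It had 13.3, 15.2 and 13.04 CPM with 2 extra copies, 13.6, 12.5 and 14.3 CPM with no extra copy, and 14.2, 16.4 and 13.2 CPM in uninduced cells. All 3 groups overlapped, at 60 to 130 counts per library. The 95% intervals of its log2 change were -0.21 to 0.32 for 2 extra copies against no extra copy (adjusted p = 0.837), -0.34 to 0.16 for 2 extra copies against uninduced cells (adjusted p = 0.645), and -0.40 to 0.11 for no extra copy against uninduced cells (adjusted p = 0.505). The interval of 2 extra copies against uninduced cells holds the log2 changes of Hsp90b1 (-0.25) and Xbp1 (-0.21) in that comparison.

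Sdf2l1 (ENSMUSG00000022769; chromosome 16, 17130138 to 17132383, reverse strand) encodes a partner of the ER J-protein Dnajb11. It had 21.9, 21.3 and 28.0 CPM with 2 extra copies, 29.9, 27.2 and 25.2 CPM with no extra copy, and 26.6, 22.2 and 21.7 CPM in uninduced cells. The groups overlapped in each comparison, and cells with no extra copy had the highest mean, 27.5 ± 2.35 CPM (SD, n = 3). Its log2 changes were -0.20 for 2 extra copies against no extra copy (adjusted p = 0.221), 0.03 for 2 extra copies against uninduced cells (adjusted p = 0.885) and 0.23 for no extra copy against uninduced cells (adjusted p = 0.157).

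Among the genes of glycoprotein and disulfide folding, Calr (ENSMUSG00000003814; chromosome 8, 84841850 to 84846934, reverse strand) encodes calreticulin, a lectin that holds glycoproteins in the ER and binds calcium. It had 700.2, 710.3 and 736 CPM with 2 extra copies, 799.8, 772 and 769.7 CPM with no extra copy, and 805, 786 and 810.0 CPM in uninduced cells. Calr was lower in each library with 2 extra copies than in any other library. It fell 1.09-fold with 2 extra copies against no extra copy (log2 -0.12, SE 0.034, adjusted p = 0.00900) and 1.12-fold against uninduced cells (log2 -0.16, SE 0.034, adjusted p = 0.000466). Without replicate 1 with 2 extra copies the adjusted p against no extra copy was 0.0519, and without replicate 1 with no extra copy it was 0.0649. Cells with no extra copy differed from uninduced cells by log2 -0.04 (adjusted p = 0.538).

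Pdia4 and Pdia6 encode protein disulfide isomerases, which form and rearrange disulfide bonds. Pdia4 (ENSMUSG00000025823; chromosome 6, 47796141 to 47813430, reverse strand) had 210.5, 199 and 207 CPM with 2 extra copies, 231, 206 and 207 CPM with no extra copy, and 255, 259.7 and 267 CPM in uninduced cells. The induced populations overlapped and lay below every uninduced library. Pdia4 fell 1.27-fold with 2 extra copies (log2 -0.34, SE 0.043, adjusted p = 3.46e-07) and 1.21-fold with no extra copy (log2 -0.28, SE 0.043, adjusted p = 1.71e-05), both against uninduced cells, and differed by log2 -0.06 between the induced populations (adjusted p = 0.379). Pdia6 (ENSMUSG00000020571; chromosome 12, 17266545 to 17284770, forward strand) had 322, 302 and 318 CPM with 2 extra copies, 339, 342 and 336 CPM with no extra copy, and 344, 346 and 354 CPM in uninduced cells. None of the 3 groups overlapped, although the gap between cells with no extra copy and uninduced cells did not pass (log2 -0.04, adjusted p = 0.601). Pdia6 fell 1.11-fold with 2 extra copies against uninduced cells (log2 -0.15, SE 0.037, adjusted p = 0.00353). Its 1.08-fold fall against no extra copy (log2 -0.11, SE 0.038, adjusted p = 0.0393) was lost in DESeq2 (adjusted p = 0.161), with RLE factors (adjusted p = 0.0609), without the filter on low counts (adjusted p = 0.117) and on leaving out any 1 of 6 libraries (adjusted p of 0.0562 to 0.198), which were all with no extra copy, replicates 2 and 3 with 2 extra copies and uninduced replicate 2.

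Herpud1 (ENSMUSG00000031770; chromosome 8, 94386438 to 94395377, forward strand) encodes a membrane protein of the ER-associated degradation complex, which removes misfolded proteins. It had 25.6, 28.7 and 26.7 CPM with 2 extra copies, 30.1, 26.6 and 25.2 CPM with no extra copy, and 34.3, 38.2 and 35.1 CPM in uninduced cells. The induced populations overlapped, below every uninduced library. Its falls against uninduced cells were 1.33-fold with 2 extra copies (log2 -0.41, SE 0.088, adjusted p = 0.000627) and 1.31-fold with no extra copy (log2 -0.39, SE 0.088, adjusted p = 0.00186). Between the induced populations the log2 change was -0.02 (95% interval -0.21 to 0.17, adjusted p = 0.917).

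Xbp1 (ENSMUSG00000020484; chromosome 11, 5520659 to 5525893, forward strand) encodes the transcription factor of the IRE1 arm, and a gene count does not separate its spliced from its unspliced mRNA. It had 78.4, 77.2 and 82.6 CPM with 2 extra copies, 101.0, 88.9 and 96.4 CPM with no extra copy, and 96.0, 90.9 and 89.7 CPM in uninduced cells. Cells with 2 extra copies had less in every library than any library of the other groups, which overlapped. Xbp1 fell 1.19-fold against no extra copy (log2 -0.25, SE 0.058, adjusted p = 0.00214) and 1.16-fold against uninduced cells (log2 -0.21, SE 0.057, adjusted p = 0.00506), the call against uninduced cells being lost in DESeq2 (adjusted p = 0.0612). The log2 change between cells with no extra copy and uninduced cells was 0.04 (95% interval -0.07 to 0.15, adjusted p = 0.708).

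The comparison of 2 extra copies with no extra copy asks what differs with Myc copy number within mosaic cultures. Here 4 of the 10 members fell (Xbp1, Dnajc3, Calr and Pdia6) and 6 did not pass, where 16.0% of all genes tested were called, 8.30% higher and 7.70% lower. The count of members called higher was 0, as it was at an unadjusted p below 0.05 and in DESeq2 and limma-voom. DESeq2 called 2 members lower, Xbp1 and Calr, and leaving out replicate 1 or replicate 2 with no extra copy also gave 2. The groups did not overlap, with 2 extra copies lower, for 5 members, where this held for 15.2% of all genes. The median log2 change of the members was -0.10 and that of all genes -0.01. Scaled by library size alone, 774 genes were called higher and 1360 lower, against 1114 higher and 1034 lower with TMM, and 5 members fell. In the same comparison markers of each cell type examined fell. These were 7 of 8 tested markers of extraembryonic endoderm, a secretory cell type, 4 of 8 of ESCs, 4 of 6 of fibroblasts and 2 of 4 of trophectoderm. DESeq2 called 5, 3, 4 and 2 of them lower, and the count called higher was 0 in each list with either tool.

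Cells with 2 extra copies were set against uninduced cells, the widest contrast in Myc level. All members but Dnajb9 and Sdf2l1 fell, a count of 8 where 25.0% of all genes were called, 12.8% higher and 12.1% lower. The count of members called higher was 0 in edgeR, in DESeq2, in limma-voom and at an unadjusted p below 0.05. The 8 that fell were also the 8 whose groups did not overlap, where 19.4% of all genes did not overlap and were lower. Their largest falls were those of Herpud1, Dnajc3 and Pdia4. The median log2 change was -0.19 over the members and -0.01 over all genes.

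The last comparison set cells labelled as having no extra copy against uninduced cells, whose titles do not give a copy number. Myc itself was 2.36-fold higher with no extra copy (adjusted p = 1.10e-11). Hsp90b1, Pdia4 and Herpud1 fell, a count of 3 members where 13.5% of all genes were called, 7.10% higher and 6.39% lower. The count of members called higher was 0 in edgeR, DESeq2 and limma-voom, and 1, Sdf2l1, at an unadjusted p below 0.05. The groups did not overlap, with no extra copy lower, for 4 members, including Pdia6, where this held for 15.4% of all genes. The median log2 change was -0.04 over the members and 0.00 over all genes. This comparison and the one before share the uninduced libraries, so their values are given side by side only: log2 -0.25 and -0.21 for Hsp90b1, -0.34 and -0.28 for Pdia4, and -0.41 and -0.39 for Herpud1, in cells with 2 extra copies and in cells with no extra copy.

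**Figure D3:**
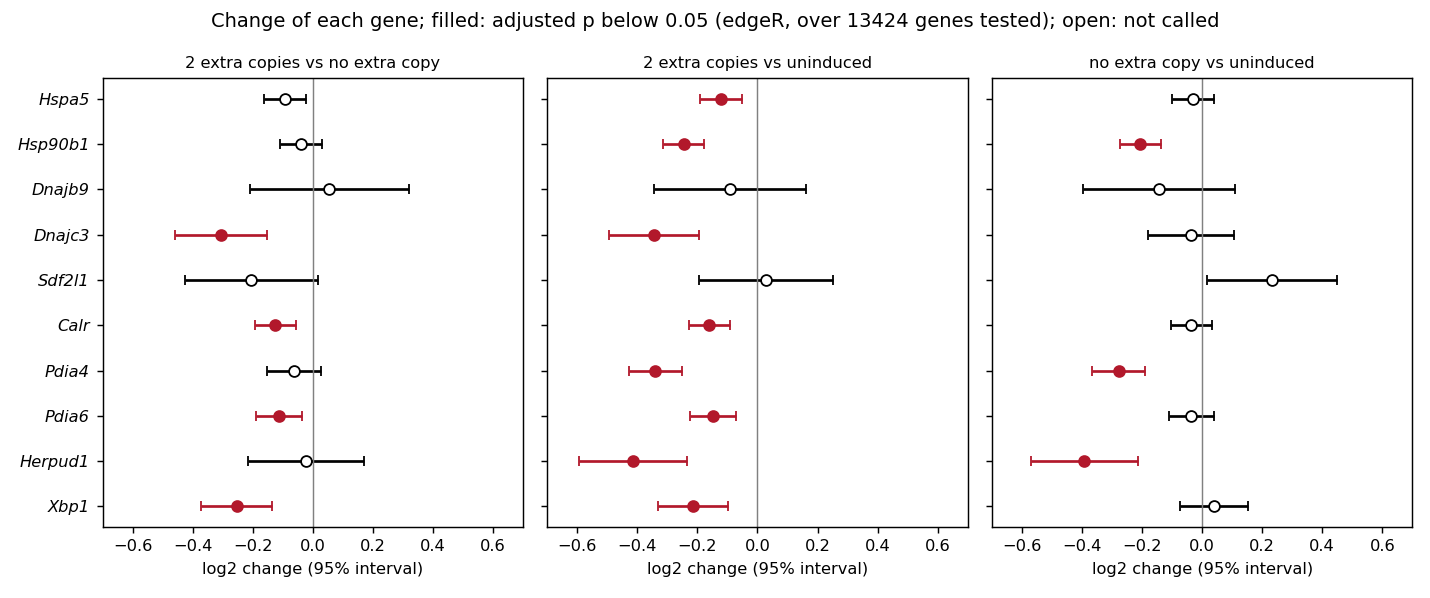
Log2 change of each member with its 95% interval in the 3 comparisons (horizontal axes; edgeR fit over all genes tested), filled where the adjusted p was below 0.05. Filled points number 4, 8 and 3 from left to right, all of them below 0, and the intervals of Dnajb9 and Sdf2l1 are the widest beside that of Herpud1.

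Divided by transcript length, the order of levels was Calr (350.5 CPM per kb, mean of 9 libraries), Hsp90b1 (319.7), Hspa5 (199), Pdia6 (153), Pdia4 (94.6), Xbp1 (58.8), Sdf2l1 (22.5), Herpud1 (15.7), Dnajc3 (8.85) and Dnajb9 (5.68). This order held within each of the 9 libraries. The ranges over libraries of Calr and Hsp90b1 overlapped, as did those of Sdf2l1 and Herpud1, and the other neighbours lay apart. The members thus span a wide range, with Calr, Hsp90b1 and Hspa5 at the top and the J-protein cochaperones Dnajc3 and Dnajb9 at the bottom. Pearson's r of each member with the mean standardised log2 profile of all 10 over the 9 libraries, which share depth and scaling, was between 0.773 and 0.960 for 8 members, 0.228 for Dnajb9 and 0.191 for Sdf2l1. The genes outside the list with the most similar profiles were Triobp (r = 0.982), D1Pas1 (0.977), Ank (0.970), Rtn3 (0.967) and Srrm4 (0.962), given as a description over 9 libraries.

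Other genes of the ER response were described by list. Of all genes tested, 7.70%, 12.1% and 6.39% were called lower, and 8.30%, 12.8% and 7.10% higher. These shares are for 2 extra copies against no extra copy, 2 extra copies against uninduced cells, and no extra copy against uninduced cells. Of 11 sensors and factors of the response, Ern1 (which encodes IRE1), Atf6 and Eif2ak3 (PERK) did not pass in any comparison. The member of that list that fell with 2 extra copies was Creb3l2, an ER-bound transcription factor, 1.77-fold against no extra copy (adjusted p = 0.000599) and 1.65-fold against uninduced cells (adjusted p = 0.00121). Nfyb, a subunit of NF-Y, fell 1.18-fold with no extra copy against uninduced cells (adjusted p = 0.00164). That made 1 of 11 lower in each comparison, with list medians of log2 -0.02, -0.05 and -0.03, and 0 higher in edgeR, DESeq2 and limma-voom, beside 1, 1 and 2 higher at an unadjusted p below 0.05.

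Of 21 other ER folding factors, 1 rose and 1 fell with 2 extra copies against no extra copy (median log2 -0.03). Mogs, the first glucosidase of N-glycan trimming, rose 1.18-fold (adjusted p = 0.00704), and P4hb, a disulfide isomerase, fell 1.08-fold (adjusted p = 0.0316), but neither was called in DESeq2 (adjusted p = 0.0645 and 0.121), and P4hb was lost on leaving out any of the 6 libraries compared (adjusted p of 0.0752 to 0.104). Against uninduced cells, 4 of 21 fell with 2 extra copies (median log2 -0.08), led by Ganab, glucosidase II alpha, 1.16-fold lower (adjusted p = 0.000121), and Ero1a, an oxidase of disulfide isomerases, 1.28-fold lower (adjusted p = 0.00506). DESeq2 called 2 of these lower, Sil1 and Prkcsh being lost (adjusted p = 0.117 and 0.131), and with the length trend removed 1 rose and 7 fell. With no extra copy, 4 of 21 fell against uninduced cells (median log2 -0.05), Ganab by 1.12-fold (adjusted p = 0.00330) and Sil1, the nucleotide exchange factor of BiP, by 1.45-fold (adjusted p = 0.00936). DESeq2 called 2 of these lower, the calls of Sil1 (adjusted p = 0.101) and Canx (adjusted p = 0.0540) being lost, and Sil1 was also lost without uninduced replicate 2 (adjusted p = 0.0584).

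Of 16 genes of ER-associated degradation, 1 fell with 2 extra copies against no extra copy, 5 fell against uninduced cells, and 1 fell with no extra copy against uninduced cells, with medians of log2 -0.04, -0.06 and -0.01. DESeq2 called 1, 2 and 0 of them lower, the calls of Sel1l, Os9 and Erlec1 with 2 extra copies against uninduced cells being lost (adjusted p = 0.0612, 0.0654 and 0.180). Derl3, a channel component, fell 1.84-fold (adjusted p = 0.00121) and 1.76-fold (adjusted p = 0.00127) with 2 extra copies against no extra copy and against uninduced cells, at means of 4.70 CPM with 2 extra copies, 8.85 CPM with no extra copy and 8.29 CPM in uninduced cells. Erlec1, a lectin, was 1.26-fold lower with no extra copy (adjusted p = 0.0478), a call lost on leaving out any of the 6 libraries compared or replicate 2 with 2 extra copies (adjusted p of 0.0516 to 0.196). Of 12 genes of ER entry, Sec61b and Sec61g, translocon subunits, rose 1.13-fold (adjusted p = 0.0204) and 1.12-fold (adjusted p = 0.0102) with 2 extra copies and 1.18-fold (adjusted p = 0.00328) and 1.14-fold (adjusted p = 0.00595) with no extra copy, against uninduced cells. Spcs3, a signal peptidase subunit, and Sec63, a J-protein of the translocon, fell 1.15-fold (adjusted p = 0.00667) and 1.16-fold (adjusted p = 0.00852) with 2 extra copies against uninduced cells. All 4 of those calls with 2 extra copies were lost in DESeq2, those of Sec61b, Sec61g and Sec63 were lost with the length trend removed, and each was lost on leaving out at least 1 library. With 2 extra copies against no extra copy, 0 of these 12 were called in edgeR, DESeq2 or limma-voom (median log2 -0.06), and 3 were lower and 0 higher at an unadjusted p below 0.05. The call of Sec61g with no extra copy was lost in DESeq2 (adjusted p = 0.0628).

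The PERK and ATF4 arm, whose genes also respond to amino acid shortage, was lower in both induced populations than in uninduced cells. Of 11 genes, 10 fell with 2 extra copies (median log2 -0.57) and 8 with no extra copy (median log2 -0.61), against uninduced cells. Chac1, a glutathione-degrading enzyme, fell 2.30-fold with 2 extra copies (adjusted p = 3.47e-13), and Asns, asparagine synthetase, fell 1.49-fold with 2 extra copies (adjusted p = 2.55e-12) and 1.63-fold with no extra copy (adjusted p = 1.73e-14). Psat1, of serine synthesis, fell 1.28-fold with 2 extra copies (adjusted p = 1.52e-09) and 1.53-fold with no extra copy (adjusted p = 1.53e-14), against uninduced cells. With 2 extra copies against no extra copy, Psat1 rose 1.19-fold (adjusted p = 3.62e-06), while Ddit3, the stress factor CHOP, fell 1.37-fold (adjusted p = 0.0221). The Ddit3 call was lost in DESeq2 (adjusted p = 0.131), without replicate 2 or 3 with 2 extra copies (adjusted p of 0.0863 and 0.0789) and without replicate 1 with no extra copy (adjusted p = 0.115). Asns rose 1.10-fold there (adjusted p = 0.0263), a call lost in DESeq2 (adjusted p = 0.0708), with library size alone (adjusted p = 0.0976), without replicate 2 or 3 with 2 extra copies (adjusted p of 0.173 and 0.0636) and without replicate 1 or 3 with no extra copy (adjusted p of 0.131 and 0.0525). In that comparison 2 of 11 rose and 1 fell (median log2 -0.01), and DESeq2 called 1 higher and 0 lower, with 2 higher and 2 lower at an unadjusted p below 0.05 in edgeR. The 12 HIF targets, genes induced by low oxygen, moved with the same contrasts: 10 fell and 1 rose with 2 extra copies against uninduced cells, 12 fell with no extra copy against uninduced cells, and 4 rose and 1 fell with 2 extra copies against no extra copy. Their summed levels were 2157 to 2256, 1874 to 1898, and 2623 to 2872 CPM in cells with 2 extra copies, cells with no extra copy and uninduced cells. The part of either in the members' differences was not tested.

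**Figure D4:**
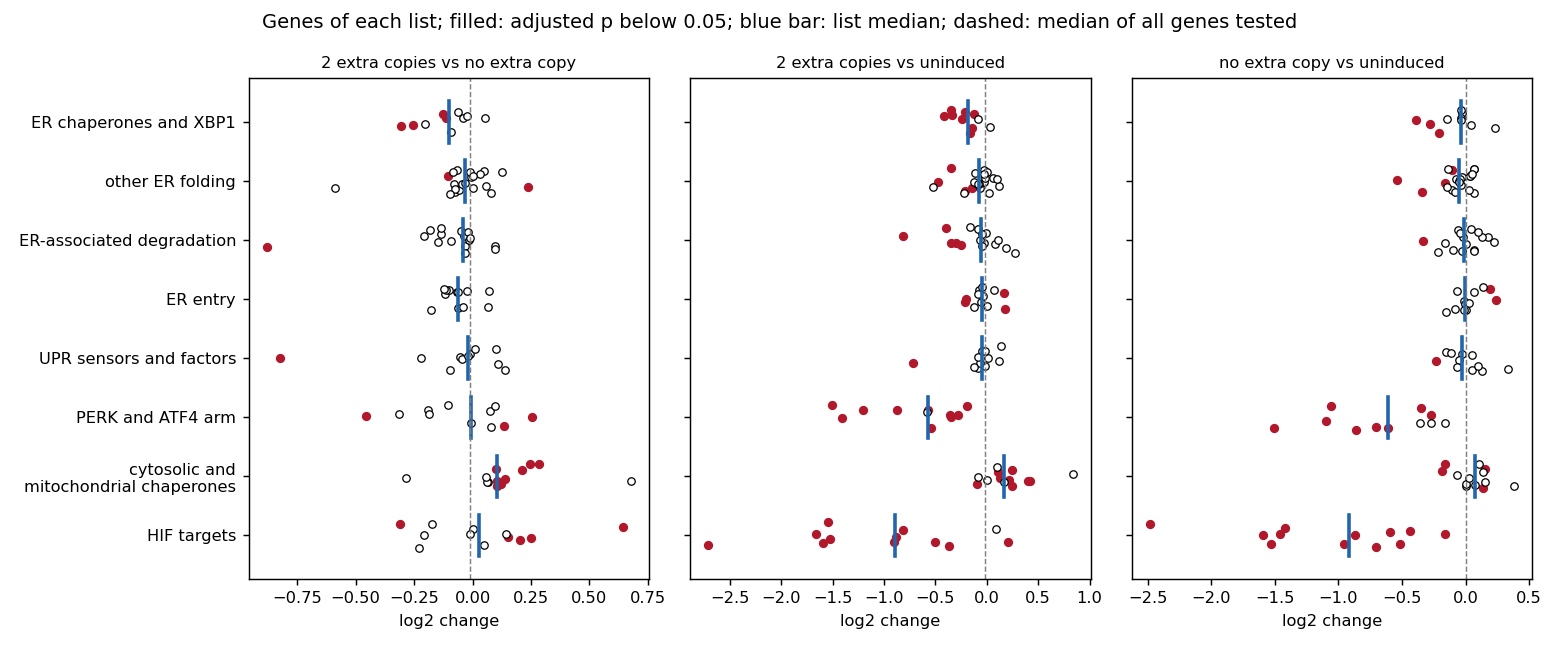
Log2 change of each gene of 8 lists in the 3 comparisons (each panel has its own horizontal scale), filled where the adjusted p was below 0.05, with the list median as a bar and the median of all genes tested as a dashed line. The median of the ER chaperones and XBP1 lies left of the dashed line in the first pair of panels, at -0.10 and -0.19, with Dnajb9 in the first and Sdf2l1 in the second to the right of it, and the median of the cytosolic and mitochondrial chaperones lies right of it, at 0.11 and 0.16, with 1 and 2 of their genes below 0.

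Chaperones of the cytosol and mitochondria, which work outside the secretory pathway, were mostly higher with 2 extra copies. Of 13 such genes, 8 rose against no extra copy (median log2 0.11), and 7 rose and 1 fell against uninduced cells (median log2 0.16). With no extra copy, 2 rose and 2 fell against uninduced cells (median log2 0.08). Hspd1 and Hspe1, the mitochondrial chaperonin and its partner, rose 1.19-fold (adjusted p = 9.25e-07) and 1.22-fold (adjusted p = 0.000105) against no extra copy, and 1.32-fold (adjusted p = 1.97e-11) and 1.34-fold (adjusted p = 2.09e-07) against uninduced cells. Scaled by library size alone, 4 of 13 rose against no extra copy, Hspa8, Hspa9, Hspa4 and Hsph1 losing their calls.

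To set ER chaperones against relatives without any scaling between libraries, their ratios were taken within each library, a comparison chosen after the values were seen. The ratio of Hspa5 to Hspa8, the cytosolic Hsp70, was 0.262, 0.247 and 0.243 in cells with 2 extra copies, then 0.287, 0.292 and 0.283 with no extra copy, and 0.292, 0.291 and 0.299 in uninduced cells. It was lower with 2 extra copies than in every other library (log2 -0.20 against no extra copy and -0.23 against uninduced cells), and the other groups overlapped. The ratio of Hsp90b1 to Hsp90aa1, a cytosolic Hsp90, was 0.191, 0.190 and 0.186 in cells with 2 extra copies, then 0.215, 0.205 and 0.215 with no extra copy, and 0.245, 0.238 and 0.251 in uninduced cells. The 3 groups did not overlap, with differences of log2 -0.16, -0.37 and -0.21 for 2 extra copies against no extra copy, 2 extra copies against uninduced cells, and no extra copy against uninduced cells. Against Hsp90ab1, another cytosolic Hsp90, the ratio of Hsp90b1 averaged 0.130 with 2 extra copies, 0.139 with no extra copy and 0.154 in uninduced cells, and 2 extra copies overlapped no extra copy (log2 -0.10, exact permutation p = 0.2), while both lay below uninduced cells. The exact two-sided permutation test gave p = 0.1 for each of the separated groups, the smallest it can give with 3 against 3 libraries. The ratio of Hspa5 to Hspa9, the mitochondrial Hsp70, averaged 0.606 with 2 extra copies, 0.692 with no extra copy and 0.623 in uninduced cells, and here uninduced cells overlapped with 2 extra copies (exact permutation p = 0.3). The ratio of Calr to Canx, both lectins of the ER, averaged 1.12 ± 0.0152 with 2 extra copies, 1.29 ± 0.0255 with no extra copy and 1.23 ± 0.0321 in uninduced cells (SD, n = 3 each), so it was lowest with 2 extra copies and highest with no extra copy. A ratio shows unequal change, not which of its genes changed. With 2 extra copies against no extra copy, Hspa8 (log2 0.10, adjusted p = 0.0263) and Hsp90aa1 (log2 0.12, adjusted p = 0.00248) were higher in edgeR. In that comparison Hspa5 (log2 -0.09, adjusted p = 0.0666) and Hsp90b1 (log2 -0.04, adjusted p = 0.478) were not called. Calr was lower (log2 -0.12, adjusted p = 0.00900), and Canx was not called (log2 0.08, adjusted p = 0.113). With no extra copy against uninduced cells, Hspa9 was lower in edgeR (log2 -0.18, adjusted p = 0.000129), and Hspa5 was not called (log2 -0.03, adjusted p = 0.638). Canx was also lower there (log2 -0.11, adjusted p = 0.0240, lost in DESeq2 at 0.0540), and Calr was not called (log2 -0.04, adjusted p = 0.538).

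**Figure D5:**
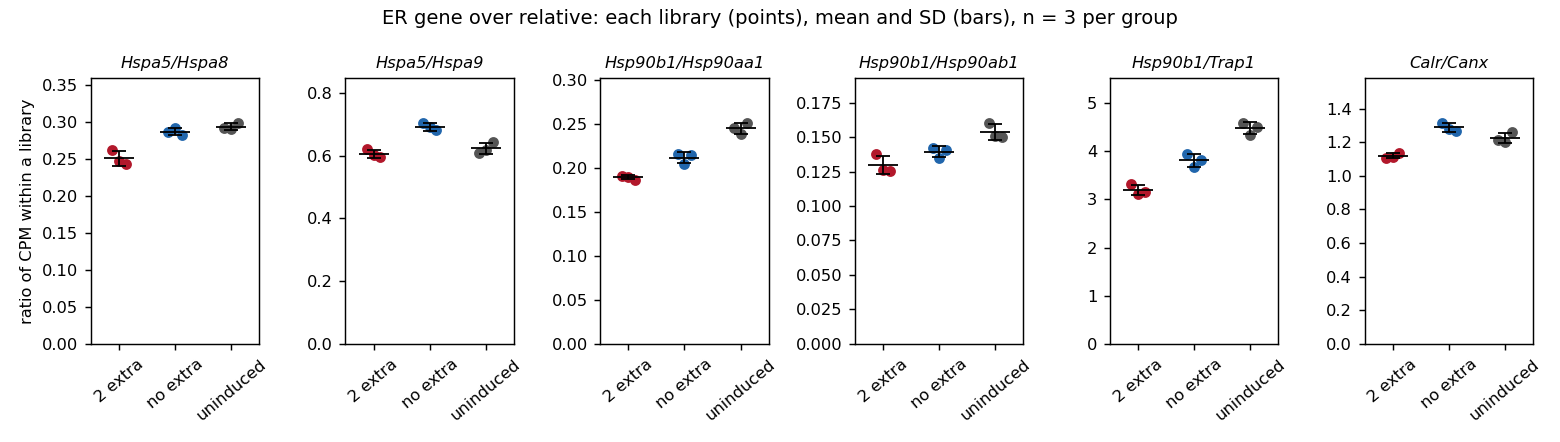
Ratio of the CPM of an ER chaperone to that of a relative within each library (vertical axes from 0), by group; points are libraries and bars the mean and SD of 3. Hspa5/Hspa8, Hsp90b1/Hsp90aa1, Hsp90b1/Trap1 and Calr/Canx are lowest in the cells with 2 extra copies, while Hspa5/Hspa9 overlaps between those cells and uninduced cells.

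Markers of other cell types moved with the groups as well. Of 13 markers of extraembryonic endoderm, a secretory cell type, 8 passed the filter, and 7 of these fell with 2 extra copies against no extra copy and 3 against uninduced cells, while 4 rose with no extra copy against uninduced cells. DESeq2 called 5, 1 and 4 of them in these comparisons. Against uninduced cells, Lamb1 and Dab2 lost their calls with 2 extra copies in DESeq2 (adjusted p = 0.150 and 0.149), both without replicate 2 or 3 with 2 extra copies or uninduced replicate 2, and Dab2 also without uninduced replicate 1 or 3, and with the length trend removed Lama1 (adjusted p = 0.111) and Lamb1 (adjusted p = 0.254) were lost. The sum of all 13 endoderm markers was 655 to 712 CPM with 2 extra copies. It was 846 to 915 CPM with no extra copy and 729 to 743 CPM in uninduced cells. Ttr was at 0 in every library. Of 9 fibroblast markers, 6 passed the filter. All 9 summed to 120.1 to 127, 193 to 218 and 76.6 to 82.8 CPM in the same order of groups. Of 8 trophectoderm markers, 4 passed. All 8 summed to 189 to 205, 215 to 242 and 147 to 162 CPM. All of these lists were highest with no extra copy, and so were the summed ESC markers (3523 to 3585 CPM). The summed level of the 10 ER members was highest in uninduced cells. Among single members, Xbp1 and Sdf2l1 had their highest means with no extra copy, 95.4 and 27.5 CPM, against 92.2 and 23.5 CPM in uninduced cells. The part of other cell types in the members' differences was not tested.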

How the data were processed

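Single-end reads of 75 bp were sequenced, per the labels. The authors deposited expected counts per gene, estimated with RSEM 1.17 on GRCm38, annotation release 84, per the file headers for the build and per the submitters' processing notes for RSEM. Those notes list Picard, limma and cutadapt too, with no role stated, and no source used here names an aligner. Expected counts split reads that fit several genes; no member had a copy past 95% identity over 50% of its transcript (minimap2 2.31-r1302).

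Counts were rounded and filtered (filterByExpr) in edgeR 4.0.16 (R 4.3.3), TMM-scaled and tested with the robust quasi-likelihood F-test, 1 coefficient per group over all 9 libraries, Benjamini-Hochberg over 13424 genes, threshold 0.05. SE is the absolute log2 change over the square root of F. The fit was tested on simulated data. Symbols, coordinates and lengths came from GENCODE M21 (35432 of 35771 identifiers named), and promoters from RefSeq. Depth (4165286 to 8872303 counts) limits the less abundant members most.

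The members and gene lists were chosen with earlier results of these data known. Named genes were all members, Myc, up to 2 called genes per direction with the smallest p from each list, and the 5 genes of at least 10 CPM most like the members' mean profile. A gene that this rule names is not reported here. Alternatives were DESeq2 1.42.0, limma-voom 3.58.1, other scaling, filters, pairs of groups, a length correction, the replicate number as a block, and leaving out each library.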

Additional observations from a re-analysis of the deposited data

How the results depend on the processing

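The counts of members called stayed within 1.5 times their value under every alternative, except members lower with 2 extra copies against no extra copy, which was 4 as reported, 2 in DESeq2 and 2 to 4 on leaving out each library. Over all genes, DESeq2 called 658 higher and 417 lower in that comparison (edgeR 1114 and 1034), 1088 and 801 with 2 extra copies against uninduced cells (edgeR 1721 and 1629), and 399 and 407 with no extra copy against uninduced cells (edgeR 953 and 858). Of the members' log2 changes, 320 of 330 values kept direction and side of the threshold under the other settings, and 249 of 270 on leaving out a library. Lost calls with 2 extra copies against no extra copy were Dnajc3 (log2 -0.29) and Pdia6 (-0.10) in DESeq2, and Pdia6 with RLE factors (-0.10) and without the filter (-0.11); Xbp1 (-0.21 in DESeq2) was lost against uninduced cells. Hspa5 passed against no extra copy with library size alone (-0.13). The causes were not tested. Same-numbered libraries correlated at -0.081 to 0.081 in their deviations, and differently numbered libraries at -0.075 to 0.056. The labels do not say whether same-numbered samples share a culture or day, and this was not tested. With the replicate block, 5, 8 and 3 members fell in the 3 comparisons and Hspa5 passed against no extra copy (log2 -0.094, adjusted p = 0.0427), also with the length trend removed (-0.084). Sdf2l1 with 2 extra copies against uninduced cells, never called, turned to log2 -0.014 with the length trend removed and -0.017 with that and the replicate block. On leaving out each library, with 2 extra copies against no extra copy, log2 ran from -0.14 to -0.092 for Calr, -0.35 to -0.23 for Dnajc3, -0.12 to -0.085 for Pdia6, -0.012 to 0.11 for Dnajb9 and -0.064 to 0.048 for Herpud1. With 2 extra copies against uninduced cells it ran from -0.14 to -0.0996 for Hspa5, -0.16 to 0.0070 for Dnajb9 and -0.11 to 0.13 for Sdf2l1. With no extra copy against uninduced cells it ran from -0.12 to 0.0013 for Dnajc3 and -0.0056 to 0.10 for Xbp1. The members whose sign turned were uncalled in these comparisons. Depth limits Dnajb9 (60 to 130 counts per library) most.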

Other observations

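Genes outside the list with an ERSE match in the RefSeq promoter window were looked up after the members' values were seen. Of 26 such genes in the table, 15 were tested. With 2 extra copies against no extra copy 2 rose and 2 fell (median log2 0.00), against uninduced cells 2 rose and 3 fell (median log2 -0.03), and with no extra copy against uninduced cells 1 rose and 2 fell (median log2 0.00). Hnrnpa3 (log2 0.14, adjusted p = 0.00221) and Pan2 (log2 0.23, adjusted p = 0.00381) were those that rose with 2 extra copies against no extra copy. Zfp57, a zinc-finger protein of genomic imprinting, fell with 2 extra copies by log2 0.20 against no extra copy (adjusted p = 0.000739) and 0.16 against uninduced cells (adjusted p = 0.00424). Derl3, of ER-associated degradation, holds the element and fell 1.84-fold with 2 extra copies against no extra copy (adjusted p = 0.00121) and 1.76-fold against uninduced cells (adjusted p = 0.00127). Syvn1, the ubiquitin ligase of ER-associated degradation, and Creld2, an ER folding factor, hold it too and had adjusted p of 0.805 and 0.999 with 2 extra copies against no extra copy.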
